A study of Homo sapiens with 6 samples.

Results

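SAS-Fucci cells are human tongue squamous cell carcinoma cells of the SAS line that carry a fluorescent reporter of cell-cycle phase. The transcriptome described here is that of the control cells, which had received a non-targeted siRNA (Cont) with a lipid transfection reagent, in 2 RNA-seq libraries out of 6 in the series. The other 4 libraries came from cells given IGFBP3 siRNA #1 for 48 h or 72 h, 2 libraries at each time, and none of their values is used here. All groups were the same transfected line in high-glucose medium with serum, so the values are those of control-transfected cells and not of untouched ones. The line is a single tumour's cells in culture, without stroma. The sources used here do not say whether the control libraries came from separate cultures or how long after transfection each was harvested. The SD over 2 libraries may therefore be technical.

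Members were the 59520 gene models with a gene name, of 66351 in the table, ranked by their mean FPKM, the fragments per kilobase of gene model scaled to the assigned reads of its library. The values rested on 19749325 assigned reads in Cont replicate 1 and 17430734 in replicate 2. A gene is called detected where its FPKM was at least 1 in both libraries. That held for 10609 named models (17.8%) and for 9417 of 19888 protein-coding genes (47.4%), the share against which the gene lists are read. A further 4888 protein-coding genes were listed at 0 in both libraries. Among detected protein-coding genes the median FPKM was 7.18, 3591 reached 10 and 293 reached 100 in both libraries. A low value does not always stand for a silent gene in this table. Another gene model on the same strand covered at least 50% of the span of 1883 protein-coding genes, and 14.7% of these were detected, compared with 50.8% of the others. Of 25 housekeeping genes, 24 were detected. The exception was SDHA, a subunit of the respiratory chain that cells generally use, at 0.116 and 0.079 FPKM under such an overlap. Also, 10 of 13 mitochondrial mRNAs were listed at 0. For this reason no upper limit is attached to a value of 0, and overlapped genes are pointed out where they are named.

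Stratified squamous epithelium is built from keratin filaments, in which each filament pairs a type I with a type II keratin. Basal cells use KRT5 with KRT14 under the control of the transcription factor TP63 and rest on hemidesmosomes. As cells move upward they switch to suprabasal keratins and then assemble the cornified envelope, while simple, single-layered epithelia use KRT8 and KRT18 with KRT7 and KRT19. In carcinoma lines these programmes can be present together.

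Of the 5 genes that mark these cells, all were detected, but their levels differed by more than 100-fold. KRT5, the type II keratin of basal cells (GRCh38 chromosome 12, 52514575 to 52520530, minus strand), stood at 298 FPKM in replicate 1 and 247 in replicate 2, rank 100 among protein-coding genes. KRT14, its usual type I partner (chromosome 17, 41582279 to 41586895, minus strand), stood at 2.76 and 2.29 FPKM, rank 7724. The KRT14 values came from 123 and 90 reads, with 95% counting intervals of 2.30 to 3.30 and 1.84 to 2.81 FPKM. Reads that KRT14 may share with other keratins are not covered by these intervals. These intervals, like those below, cover counting error only. Whether copies of the same molecule were counted more than once was not tested. KRT5 thus exceeded KRT14 by a factor of 108 in each library. TP63 (chromosome 3, 189631389 to 189897276, plus strand) stood at 12.4 and 10.7 FPKM, rank 3311. EGFR, the epidermal growth factor receptor (chromosome 7, 55019017 to 55211628, plus strand), stood at 23.4 and 20.7 FPKM, rank 1808. IGFBP3, a secreted binding protein for insulin-like growth factors and the target in the rest of the series (chromosome 7, 45912245 to 45921874, minus strand), stood at 24.7 and 23.1 FPKM, rank 1650. Replicate 1 was the higher library for each of the 5, by less than 1.5-fold.

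The keratins as a whole were dominated by those of simple epithelia. KRT7 stood at 485 and 535 FPKM and KRT18 at 514 and 452, and the libraries of this pair overlapped, so their order is not settled. KRT8 followed at 322 and 302 FPKM, above KRT5 in both libraries. KRT19 stood at 96.8 and 79.4 FPKM. Of 6 listed simple keratins 4 were detected, as KRT20 stood at 0.106 and 0.06 FPKM and KRT23 at 0.349 and 0.18. Together KRT7, KRT8, KRT18 and KRT19 made up 66.9% and 70.8% of all keratin FPKM, while the basal keratins KRT5, KRT14 and KRT15 made up 14.3% and 13%. KRT15, another basal type I keratin, was low as well, at 2.24 and 1.68 FPKM. The stress keratins, which wounded and hyperproliferative epithelia use, contributed 9.55% and 8.35%, of which KRT17 gave most, at 164 and 135 FPKM. KRT6A stood at 36.9 and 25.1 FPKM, whereas KRT16 sat at the threshold with 1.11 and 0.979. KRT6B and KRT6C did not exceed 0.2 FPKM in either library. KRT81 and KRT86, type II keratins known from hair, stood at 145 and 96.7 FPKM and at 6.93 and 4.93 FPKM, and KRT80 at 30.6 and 33.9. Reads can be shared among KRT6A, KRT6B and KRT6C, among KRT14, KRT16 and KRT17, between KRT81 and KRT86, and between KRT8 or KRT18 and their pseudogenes, and how such reads were counted is not given in the sources used here.

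**Figure D1:**
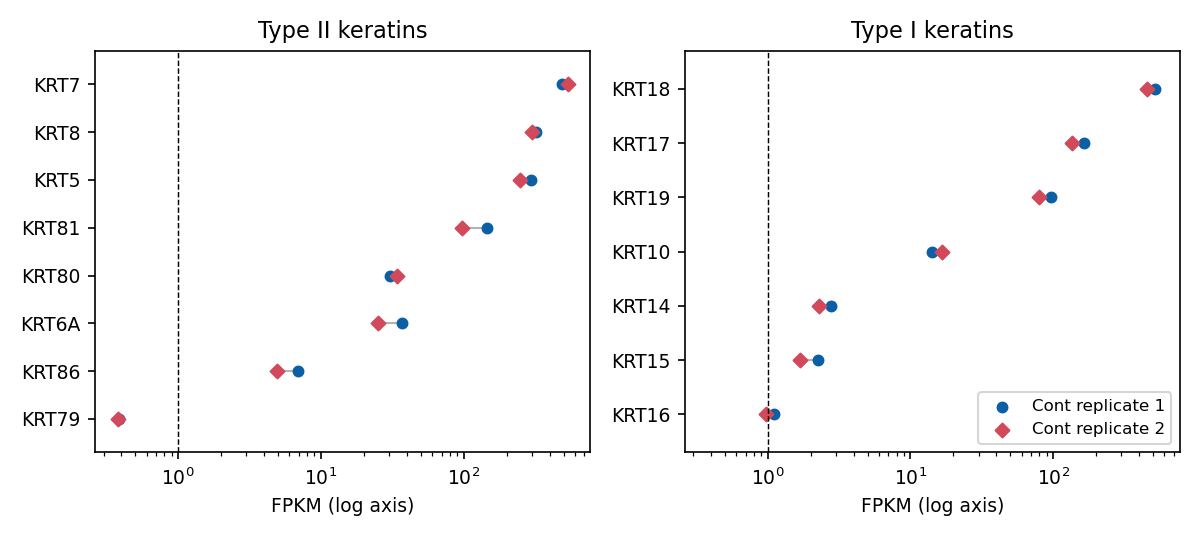
FPKM of keratin genes with a mean of at least 0.3 in the 2 control libraries (circles, replicate 1, diamonds, replicate 2, log axis, dashed line at 1). KRT7, KRT8, KRT5 and KRT18 lie above 200, whereas KRT14, at 2.76 and 2.29, lies near the bottom of the type I panel.

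Summed by type, the 26 type II keratins reached 1325 and 1245 FPKM, with 7 detected, and the 28 type I keratins reached 796 and 688 FPKM, with 6 detected. By summed FPKM, type II thus exceeded type I by 1.66 and 1.81 times. FPKM divides by the length of the gene model, which was 7201 bases for KRT8 and 3069 for KRT18. In reads KRT8 lay above KRT18, at 45847 and 37932 against 31139 and 24162. KRT5 exceeded KRT14 in reads as well, at 24306 and 17778 against 123 and 90. How far model length shaped the keratin orders, shares and sums was not tested. KRT14 contributed 0.347% and 0.333% of the type I sum, and KRT5 contributed 22.5% and 19.8% of the type II sum. Of 12 suprabasal keratins, only KRT10 was detected (8.33%, against 47.4% of protein-coding genes), at 14.2 and 16.5 FPKM. KRT1 and KRT13, the keratins of cornifying and of moist stratified epithelium, did not exceed 0.02 FPKM, and KRT4, the partner of KRT13 in the oral mucosa, was listed at 0.

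The cell-adhesion apparatus of an epithelium was nearly complete, with 27 of 30 listed junction and hemidesmosome genes detected (90%, against 47.4% of protein-coding genes). EPCAM, an epithelial adhesion molecule, stood at 109 and 127 FPKM. The tight-junction gene CLDN1 stood at 129 and 95.2 FPKM, and JUP, which links cadherins to the cytoskeleton, at 124 and 89.4. E-cadherin (CDH1) stood at 54.2 and 36.5 FPKM and P-cadherin (CDH3), typical of basal cells, at 53.2 and 47.2. Hemidesmosome genes were all among the detected ones, for example ITGB4 at 80.8 and 73.3 FPKM and ITGA6 at 29.6 and 29.1. LAMB3, a chain of the laminin to which hemidesmosomes bind, stood at 79.8 and 72.9 FPKM. The 3 genes not detected were the desmosomal cadherins DSG1, DSC1 and DSG4, which belong to the upper layers of skin. DSG2, the desmosomal cadherin of simple and basal epithelium, stood at 41.8 and 44.7 FPKM.

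Genes of late squamous differentiation were mostly not detected. Of 30 listed, 7 passed (23.3%, against 47.4% of protein-coding genes). They were S100A9 at 60.8 and 51.6 FPKM, CSTA, CALML3, PPL, EVPL, IVL and CNFN. PPL and EVPL encode envelope scaffold plakins and stood at 12.6 and 11.3 and at 7.49 and 7.53 FPKM. IVL, the early envelope precursor involucrin, stood at 2.73 and 2.88 FPKM. The other 23 included 11 listed at 0, among them SPRR3 and CRNN, which are typical of oral mucosa, the loricrin gene LORICRIN, and S100A8, the partner of S100A9. TGM3 was also at 0, but another model covers it. TGM1, the keratinocyte transglutaminase, stood at 0.108 and 0.169 FPKM.

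Transcription factors of squamous cells were detected in 16 of 22 cases (72.7%, against 47.4% of protein-coding genes). GRHL2, an activator of epithelial junction genes, led the list at 20.9 and 22.3 FPKM. BNC1, a factor of basal keratinocytes, stood at 18.4 and 19.4 FPKM, KLF5 at 20.9 and 16.4, EHF at 20.5 and 15.8 and TFAP2A at 17.1 and 13.1. Each neighbouring pair from BNC1 to TFAP2A overlapped between libraries, so the order within this group is not settled. TP63 lay below both libraries of TFAP2A. PITX1 stood at 8.91 and 8.98 FPKM, TFAP2C at 8.92 and 7.55, SOX15 at 7.78 and 7.64, and TRIM29 at 7.76 and 7.12. OVOL1 and GRHL3, which act in differentiating keratinocytes, were uneven between the libraries, at 6.96 and 2.79 FPKM and at 5.34 and 3.0. ELF3 and KLF4 were detected with means of 3.21 and 1.53 FPKM. SOX2, often amplified together with TP63 in squamous tumours, stood at 0.887 and 1.53 FPKM from 44 and 67 reads, but it lies inside the model of SOX2-OT on the same strand, and the part of that overlap in the low value was not tested. ZNF750, a differentiation factor downstream of TP63, straddled the threshold at 1.3 and 0.64 FPKM. OVOL2, BARX2 and GRHL1 stayed below 1 in both libraries, and HOPX was listed at 0.

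Alongside the junction genes, 8 of 12 mesenchymal or EMT (epithelial-mesenchymal transition) genes were detected (66.7%, against 47.4% of protein-coding genes). At a threshold of 5 FPKM the count was 4. SNAI2, a repressor of E-cadherin also active in basal keratinocytes, stood at 15.8 and 15.9 FPKM, and SNAI1 at 4.22 and 4.21. TWIST2 stood at 5.34 and 6.08 FPKM and TWIST1 at 2.80 and 2.91. ZEB1 and ZEB2, repressors of the epithelial state, did not exceed 0.21 FPKM. Among effectors, fibronectin (FN1) stood at 19.7 and 20.6 FPKM, and N-cadherin (CDH2) at 3.87 and 5.09. Vimentin (VIM) stood at 16.8 and 30.7 FPKM, higher in replicate 2 by more than the 1.5-fold used for differences between libraries. The ratio of CDH1 to CDH2 accordingly was 14 in replicate 1 and 7.18 in replicate 2, so its size depends on the library, whereas its direction was the same in both.

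Transcription factors that define other lineages were detected in 10 of 51 cases (19.6%, against 47.4% of protein-coding genes). The highest was NKX2-5, a cardiac factor, at 13 FPKM in each library from 541 and 480 reads, a level at which it exceeded TP63 in each library. GATA2, a haematopoietic and endothelial factor, stood at 7.01 and 6.02 FPKM and SOX9, a factor of cartilage and many epithelial progenitors, at 6.08 and 5.17. FOXE1, known from thyroid and foregut development, stood at 5.21 and 5.24 FPKM, and FOXA2, an endoderm factor, at 4.88 and 4.04. MITF, GATA6, RUNX2 and GATA3 were detected with means between 1.38 and 2.03 FPKM. Of the 41 others, 24 were listed at 0, among them MYOD1 of muscle, SOX10 of neural crest, CDX2 of intestine, SPI1 of myeloid cells, and the pluripotency genes POU5F1 and NANOG. FOXA1, which with FOXA2 opens endodermal chromatin, stood at 0.275 and 0.351 FPKM, and NKX2-1 of thyroid and lung at 0.192 and 0.236.

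**Figure D2:**
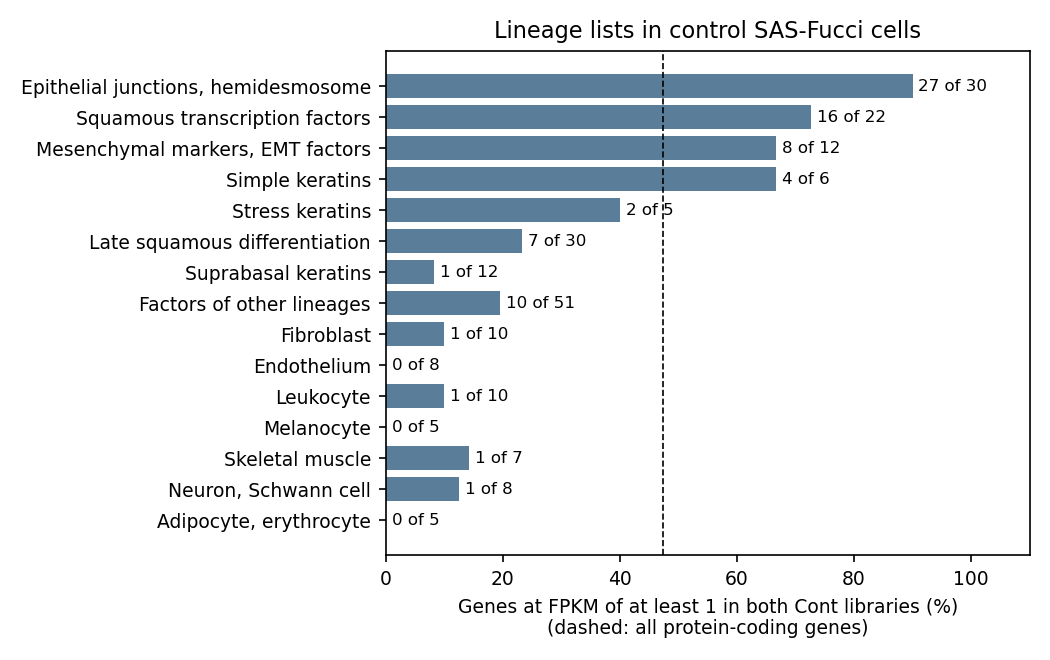
Percentage of the genes of each lineage list with an FPKM of at least 1 in both control libraries, with the counts beside the bars and a dashed line at 47.4%, the share over all protein-coding genes. Junction genes (27 of 30), squamous factors (16 of 22), mesenchymal or EMT genes (8 of 12) and simple keratins (4 of 6) lie above the line. Stress keratins (2 of 5), suprabasal keratins (1 of 12) and the lists of late differentiation, other-lineage factors and other cell types lie below it.

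Markers of other cell types were largely missing, as 4 of the 53 genes in 7 lists were detected, against 47.4% of protein-coding genes. None of 8 endothelial, 5 melanocyte or 5 adipocyte and erythrocyte markers passed. Their highest value was 0.439 FPKM, for CDH5. Of 10 fibroblast markers only COL1A1 passed, with a mean of 1.27 FPKM, while COL1A2, the other chain of the same collagen, stood at 0.033 and 0.021 and DCN and LUM were listed at 0. Of 10 leukocyte markers only CSF1R passed, at 1.33 and 1.57 FPKM, and PTPRC, the pan-leukocyte marker, stood at 0.006 and 0. TNNT1, a slow-muscle troponin, was the single muscle gene detected, at 19.8 and 18.3 FPKM, with DES, CKM and MYH7 listed at 0. Of 8 neuronal and Schwann cell markers 1 passed, and S100B was listed at 0. The detected markers were thus solitary members of lists whose defining genes were at or near 0.

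Receptor tyrosine kinases carry growth factor signals into the cell, and 26 of 58 were detected (44.8%, close to the share of all protein-coding genes). AXL, the receptor for GAS6 often described in migratory carcinoma cells, was highest at 101 and 106 FPKM, 4.30 and 5.12 times the level of EGFR. MET, the receptor of hepatocyte growth factor, stood at 41.5 and 39.8 FPKM and EPHA2, an ephrin receptor, at 28.8 and 27.9. EGFR came next, and then FGFR2 at 14.8 and 13.7 FPKM. These 5 were each apart from the next, with both libraries of the higher gene above both of the lower. PTK7, DDR1, ERBB2 and RYK followed with means between 7.58 and 9.51 FPKM, and each neighbouring pair of this group overlapped.

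Within the EGFR family, EGFR exceeded ERBB2 by 2.88 and 2.74 times. ERBB2, the co-receptor without a ligand of its own, stood at 8.11 and 7.57 FPKM and ERBB3 at 1.58 and 1.48, and ERBB4 was listed at 0. Among FGF receptors, FGFR2 exceeded FGFR1 by 7.49 and 6.86 times, and FGFR3 stood at 1.51 and 1.35 FPKM. IGF1R, the receptor through which insulin-like growth factors signal, stood at 7.31 and 6.36 FPKM, and the insulin receptor INSR at 1.16 and 1.1. Of the 32 receptors that did not pass, 10 were listed at 0, including KIT, FLT3, KDR and TEK, receptors of blood and vessel cells.

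**Figure D3:**
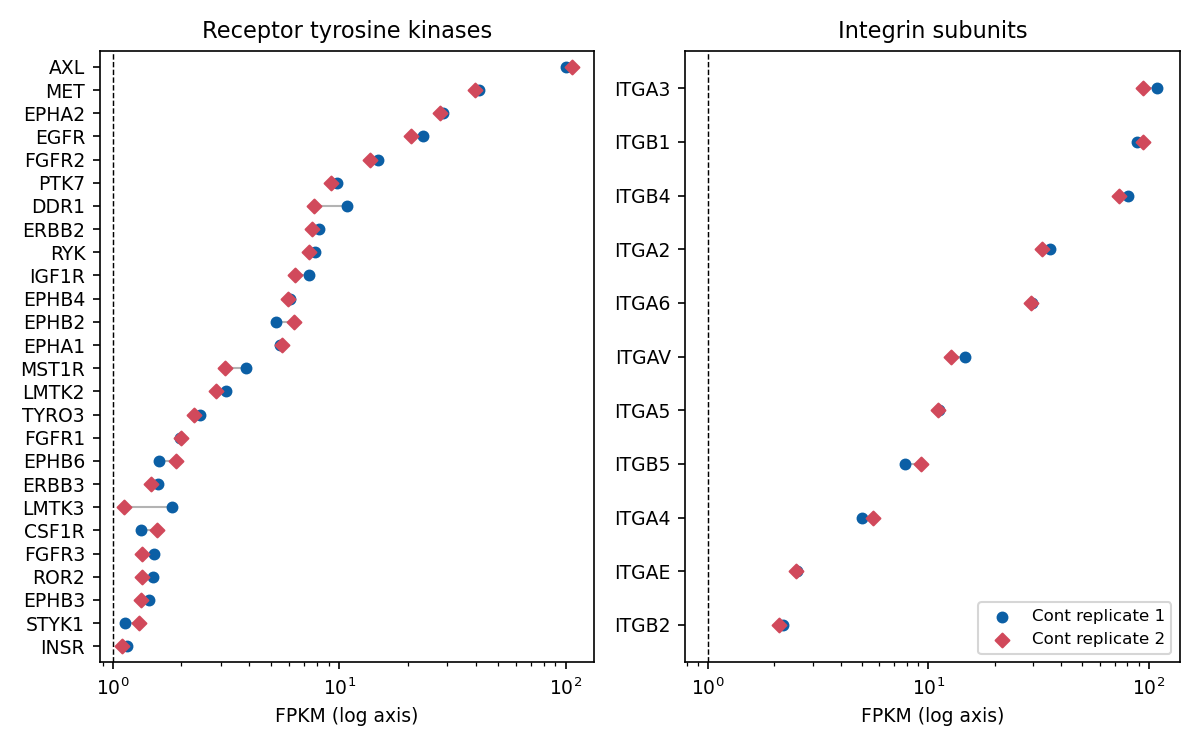
FPKM of the 26 detected receptor tyrosine kinases and the 11 detected integrin subunits in each control library (log axis, circles for replicate 1, diamonds for replicate 2). AXL at 101 and 106 lies apart from MET, EPHA2, EGFR and FGFR2, which follow in that order in both libraries.

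Integrins bind the cell to matrix, and 11 of 26 subunits were detected (42.3%, against 47.4% of protein-coding genes). ITGA3 stood at 109 and 93.9 FPKM and ITGB1 at 88.9 and 94.3, the subunits of a laminin receptor, and their libraries overlapped. ITGB4 and ITGA6 form the hemidesmosome integrin and are given above. The collagen-binding ITGA2 stood at 35.6 and 32.7 FPKM, ITGAV at 14.7 and 12.6, and the fibronectin-binding ITGA5 at 11.1 and 11.0. ITGB6, an epithelial partner of ITGAV, stood at 0.817 and 0.855 FPKM under a covering model.

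Of 13 receptors of the TGF-beta and BMP family 6 were detected (46.2%, against 47.4% of protein-coding genes). The highest was TGFBR2 at 20.5 and 21.6 FPKM, with its signalling partner TGFBR1 at 3.31 and 2.73. Among cytokine receptors, 19 of 35 were detected (54.3%). IL7R, best known from lymphocytes, was the highest of them at 37.8 and 35.3 FPKM, although its co-receptor IL2RG was listed at 0 under a covering model. TNFRSF1A stood at 31 and 25 FPKM, and the shared signal transducer IL6ST at 19.4 and 17 with OSMR, the receptor of oncostatin M, at 17.1 and 13. IFNAR2 and IL10RB were near 0 under covering models as well. Chemokine receptors stood apart by their low levels, as 1 of 22 was detected (4.5%). This was the scavenger ACKR3 at 3.91 and 5.60 FPKM, and CXCR4 stood at 0 and 0.052. Notch and Wnt receptors were detected in 8 of 16 cases (50%), with FZD6 first at 58.5 and 52.0 FPKM and NOTCH2 at 9.52 and 8.58. Of 48 nuclear receptors 19 were detected (39.6%). Among them were the lipid sensors PPARD at 14.3 and 11.3 FPKM and PPARG at 11.8 and 10.2. The glucocorticoid receptor NR3C1 stood at 9.34 and 9.06 FPKM and the vitamin D receptor VDR at 8.90 and 9.21. Of the sex steroid receptors, ESR1 stood at 0.135 and 0.144 FPKM, and PGR was listed at 0.

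Insulin-like growth factors (IGFs) are secreted ligands that circulate bound to the IGFBP proteins. Of 19 genes of this axis 8 were detected (42.1%, against 47.4% of protein-coding genes). Both ligand genes were near 0, with IGF1 at 0 and 0.014 FPKM and IGF2 at 0.016 and 0, the latter under a covering model. Of the binding proteins, IGFBP7, a member with low IGF affinity, stood highest at 76.4 and 69.3 FPKM, above IGFBP4 at 48.5 and 53.9. IGFBP3 was thus exceeded by IGFBP7 by 3.09 and 3.0 times. IGFBP6 stood at 8.74 and 7.51 FPKM. IGFBP1, IGFBP2 and IGFBP5 stayed below 0.6 FPKM in both libraries. The receptor IGF2R, which clears IGF2, stood at 10.2 and 10.1 FPKM, and TMEM219, described as a receptor of IGFBP3, at 0.525 and 0.547. IGFL1, a secreted IGF-like protein, was the least reproducible member at 53.2 and 20.4 FPKM.

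Ligands of the EGFR family were detected in 5 of 11 cases (45.5%, against 47.4% of protein-coding genes). AREG stood at 43.4 and 25.5 FPKM, HBEGF at 27 and 23.1, EREG at 9.68 and 5.91, TGFA at 7.47 and 4.96, and the ERBB3 ligand NRG1 at 2.02 and 2.49. The first 4, which bind EGFR, were all higher in replicate 1, AREG and EREG by more than 1.5-fold. BTC was below 1 in replicate 1, at 0.737 and 1.13 FPKM, and NRG2 stood at 0.726 and 0.848. EGF itself stood at 0.013 and 0.008 FPKM, EPGN and NRG4 did not exceed 0.18, and NRG3 was listed at 0.

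**Figure D4:**
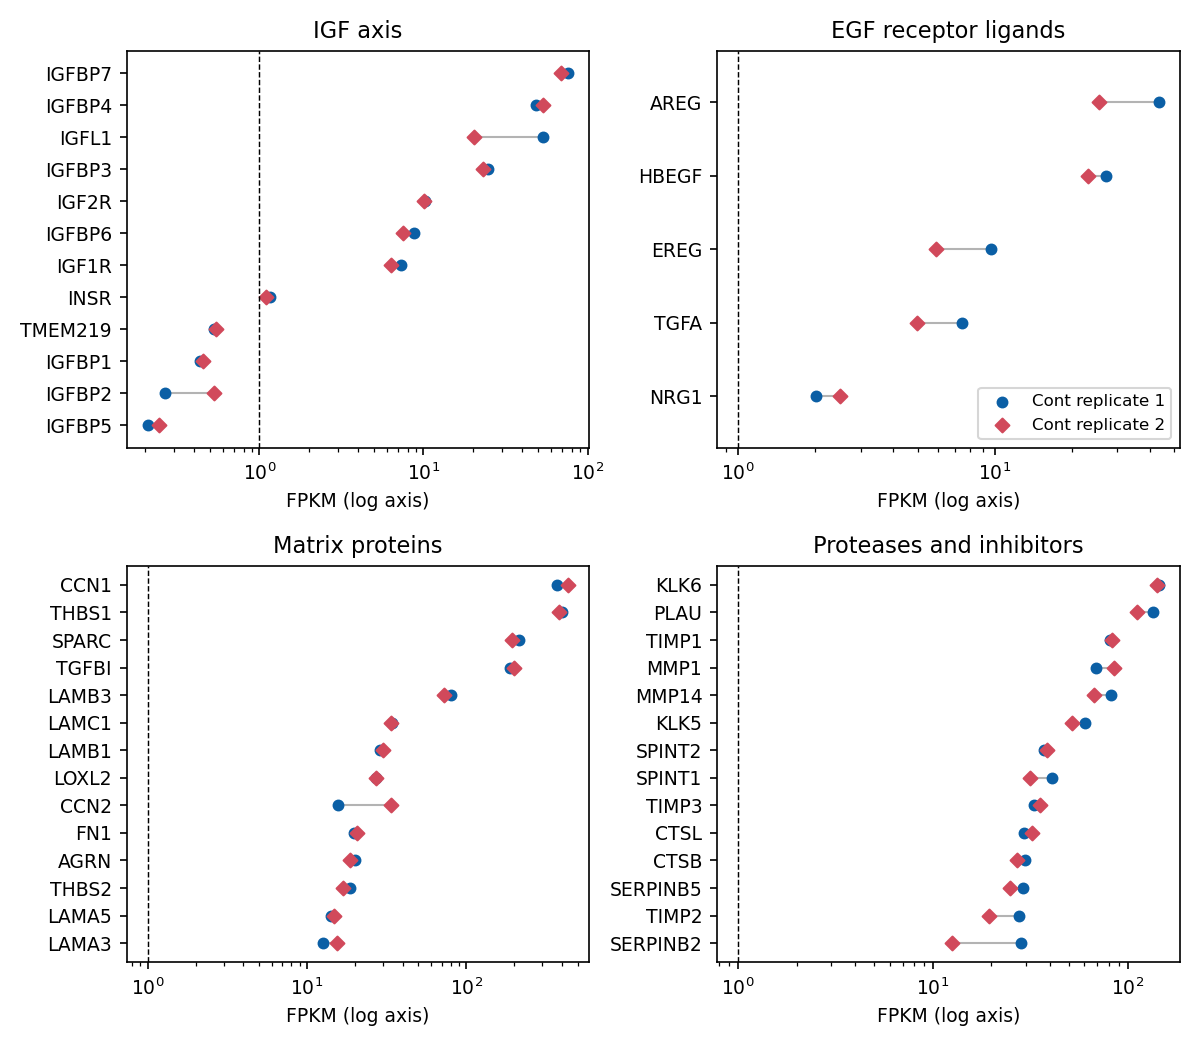
FPKM in each control library (log axis, circles for replicate 1, diamonds for replicate 2) of the IGF axis genes with a mean of at least 0.1, the detected EGFR family ligands, and 14 matrix and 14 protease or inhibitor genes from the top of their lists. IGFL1, SERPINB2 and CCN2 show wide gaps between libraries, at 53.2 and 20.4, 28.4 and 12.6, and 15.8 and 33.8.

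For other secreted products the detected share was 84.2% for matrix genes, 70.7% for proteases and inhibitors, 61.8% for growth factors and 30% for cytokines. That of all protein-coding genes was 47.4%. Of 38 matrix genes 32 were detected, led by CCN1, a matricellular protein made in response to YAP and serum, at 372 and 437 FPKM, and thrombospondin-1 (THBS1) at 398 and 382. SPARC, a collagen-binding matricellular protein, stood at 214 and 194 FPKM and TGFBI at 189 and 199. Of 41 proteases and inhibitors 29 were detected. The kallikrein KLK6 stood at 145 and 142 FPKM and urokinase (PLAU) at 136 and 112, while the collagenase MMP1 stood at 69.1 and 85.7, the membrane-bound MMP14 at 81.9 and 67.7 and the inhibitor TIMP1 at 81.4 and 83.6. Of 55 growth factors and their antagonists 34 were detected, with the Wnt antagonist DKK1 first at 71.7 and 81.5 FPKM, followed by STC2 at 22.7 and 22.1, the vasoactive peptide gene ADM at 21.4 and 21.1 and the activin antagonist FST at 21.5 and 16.3. TGFB2 and TGFB1 stood at 18.9 and 17.7 and at 18.3 and 15.4 FPKM. Of 30 cytokines 9 were detected, namely the epithelial IL1A at 29.6 and 23.6 FPKM, IL1B at 20.8 and 13.4, LIF at 14.6 and 7.79, IL24, IL18, CXCL1, CXCL16, IL6 and IL11. CXCL8 straddled the threshold at 0.746 and 1.05 FPKM.

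Among 20 genes known as drivers of head and neck carcinoma 18 were detected (90%, against 47.4% of protein-coding genes). CCND1, the cyclin of the G1 phase, stood at 209 and 198 FPKM, MYC at 53.9 and 60.9, and CTTN, which lies near CCND1, at 52.7 and 49.2. The p16 gene CDKN2A stood at 14.7 and 15.1 FPKM. FAT1 was at 0.016 and 0.021 FPKM, and NFE2L2 at 0.612 and 0.813 under a covering model. No statement on mutation or copy number can be made from these levels.

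The most abundant protein-coding mRNA was TMSB10, which encodes an actin-binding thymosin, at 3319 and 3291 FPKM. The ferritin light chain FTL followed at 3291 and 2683 and the heavy chain FTH1 stood at 1401 and 999 FPKM, both lower in replicate 2 by less than 1.5-fold. The metallothionein MT2A stood at 1543 and 1884 FPKM. HMGA1, a chromatin protein often abundant in carcinoma, stood at 1402 and 1480 FPKM, rank 7. The remaining genes of the first 20 were GAPDH, ACTB and ACTG1, EEF1A1, EEF2 and PABPC1 of translation, 5 ribosomal protein genes (RPS2, RPL8, RPL19 and RPS12 among them), the chaperones HSP90AA1 and HSP90AB1, and the mitochondrial MT-CYB and MT-CO1. Together the first 20 held 13.4% of the FPKM sum of protein-coding genes. MT-CO1, MT-CYB and MT2A carry models of 8245, 1207 and 1321 bases, longer than their own spans, and which reads these models hold was not tested. The 10 highest named models that are not protein-coding were all pseudogenes, led by RPL41P1 at 5601 and 6158 FPKM. Among them the unprocessed pseudogenes MTND2P28 and MTATP6P1 stood at 1019 and 903 and at 935 and 653 FPKM. Whether the reads of these 10 models came from the pseudogenes or from their parent genes was not tested.

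The libraries agreed closely for most genes. Over the 10913 named genes with a mean FPKM of at least 1, Pearson's r of log2(FPKM + 1) was 0.99 and Spearman's rho 0.988, as a description across genes, which are not independent replicates. The median gene differed by 1.07-fold on the FPKM + 1 scale, and 98.2% lay within 1.5-fold. The root mean square log2 difference was 0.21. The difference nevertheless exceeded counting error, as 37.9% of genes lay outside the 95% range that the read counts alone would give. This excess grew with depth, from a chi-square per degree of freedom of 4.49 for genes with a mean of 1 to 10 FPKM to 16.3 between 10 and 100 and 148 from 100 upward. At an equal fold this value rises with the number of reads. The root mean square log2 difference itself was 0.216, 0.182 and 0.227 in these ranges. Counting intervals therefore understate the spread in each range, and most for the abundant genes, although fold differences were of similar size.

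Past 1.5-fold, 124 named genes were higher in replicate 1 (1.14%) and 75 in replicate 2 (0.687%). Of these 199, 70 were protein-coding (0.732% of 9557) and 129 were other models (9.51% of 1356). The counting intervals of the libraries were separate for 69 of the 70 protein-coding genes but for 40 of the 129 others. Ranked over all named models, the 5 widest differences in each direction were largely of short models with few reads. Those higher in replicate 2 were SNORD19 (0 and 4 reads), EGR1, FOS, MIR3685 (1 and 4 reads) and SNORD60 (3 and 9 reads). Those higher in replicate 1 were MIR429 (10 and 1 reads), CRCT1, FP671120.2 (6 and 1 reads), AC002059.2 (7 and 1 reads) and the pseudogene CBWD4P (119 and 34 reads). Of these, SNORD19, SNORD60, FP671120.2 and AC002059.2 lie wholly under covering models. With a single library on each side, none of these differences has a test, and the fold is the only criterion. Among the protein-coding genes the direction was uneven, with 59 higher in replicate 1 and 11 in replicate 2.

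The genes higher in replicate 1 included many of cholesterol and fatty acid synthesis. Cells make these lipids when the sterol sensor SCAP, held back by INSIG1, releases the SREBP factors to activate the pathway's genes. Because the pattern was noticed in these values, a list of 33 pathway genes was then drawn up, and its counts are a description and no evidence of their own. Of the 29 with a mean FPKM of at least 1, 28 were higher in replicate 1, and 13 of them by more than 1.5-fold. Over all 10913 genes, 48.0% were higher in replicate 1. The median log2 difference was -0.55 for the list and 0.01 for all genes, replicate 2 minus replicate 1. SCD, the desaturase that makes monounsaturated fatty acids, stood at 198 and 82.5 FPKM, from 22783 and 8363 reads. INSIG1 stood at 20.2 and 8.27 FPKM, the synthase HMGCS1 at 52.7 and 22.8, and the sterol oxidase MSMO1 at 31.2 and 14.9. The SREBP gene SREBF2 stood at 22.1 and 12.7 FPKM. The epoxidase SQLE stood at 90.9 and 57.3 FPKM, and FASN, the fatty acid synthase, at 98.7 and 70.8. PMVK was the exception at 5.60 and 6.12 FPKM. The 4 genes under a mean of 1 included EBP and CYP51A1, both under covering models, and TM7SF2.

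Immediate early genes, which serum and stress switch on within minutes, behaved unevenly. Of 28 such genes, listed after the values were seen, 20 had a mean FPKM of at least 1, of which 10 were higher in each library. EGR1, a zinc finger factor, was at 42.6 FPKM in replicate 1 and 171 in replicate 2, from 2640 and 9374 reads, the widest protein-coding difference in that direction. FOS stood at 0.715 and 4.07 FPKM, from 45 and 226 reads, and CCN2, a YAP and serum target, at 15.8 and 33.8. With EDN1, a vasoactive peptide, at 2.44 and 5.49 FPKM and VIM these were the first 5 protein-coding genes higher in replicate 2. EGR3 and IER3 lay the other way, at 2.46 and 1.06 and at 101 and 66.2 FPKM, and JUN stood at 43.5 and 39.2.

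The regulatory sequence of 3 genes at the extremes of this difference is shown, SCD on the lipid side and EGR1 and FOS on the immediate early side. Each run is the 250 bases before the RefSeq start of the gene in GRCh38.p14, on the plus strand, at chr10:100346983-100347232 for SCD, chr5:138465229-138465478 for EGR1 and chr14:75278578-75278827 for FOS. Capitals mark the CCAAT box (CCAAT), the GC box (GGGCGG), the TATA box (TATAAA) and the core of the serum response element, each searched on both strands.
SCD: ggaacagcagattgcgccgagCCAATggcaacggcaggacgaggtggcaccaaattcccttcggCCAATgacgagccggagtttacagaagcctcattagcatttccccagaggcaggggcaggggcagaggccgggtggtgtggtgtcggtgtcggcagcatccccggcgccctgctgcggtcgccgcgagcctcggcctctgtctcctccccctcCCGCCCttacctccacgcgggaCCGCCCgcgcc
EGR1: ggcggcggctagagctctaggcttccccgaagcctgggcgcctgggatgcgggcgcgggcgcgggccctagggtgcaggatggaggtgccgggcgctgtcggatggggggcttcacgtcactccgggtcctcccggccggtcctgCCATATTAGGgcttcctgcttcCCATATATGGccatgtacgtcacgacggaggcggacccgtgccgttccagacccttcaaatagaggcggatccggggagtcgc
FOS: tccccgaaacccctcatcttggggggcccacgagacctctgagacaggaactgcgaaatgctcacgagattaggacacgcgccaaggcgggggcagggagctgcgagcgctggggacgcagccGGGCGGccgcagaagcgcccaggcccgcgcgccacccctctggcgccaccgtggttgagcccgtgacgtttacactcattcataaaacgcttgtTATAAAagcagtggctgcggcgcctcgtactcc
SCD held 2 CCAAT boxes and 2 GC boxes, EGR1 held 2 serum response element cores and no other match, and FOS held 1 TATA box and 1 GC box. No capitals overlapped between motifs. Of 35116 RefSeq promoters of the same length, 32% held a CCAAT box, 42.6% a GC box, 10.7% a TATA box and 1.16% a serum response element core. These matches describe letters in the window and no binding was measured. Sequence further from the start was not searched, and sites for the SREBP factors were not among the motifs. A motif missing here, such as the serum response element core in FOS, may therefore lie outside the window.

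**Figure D5:**
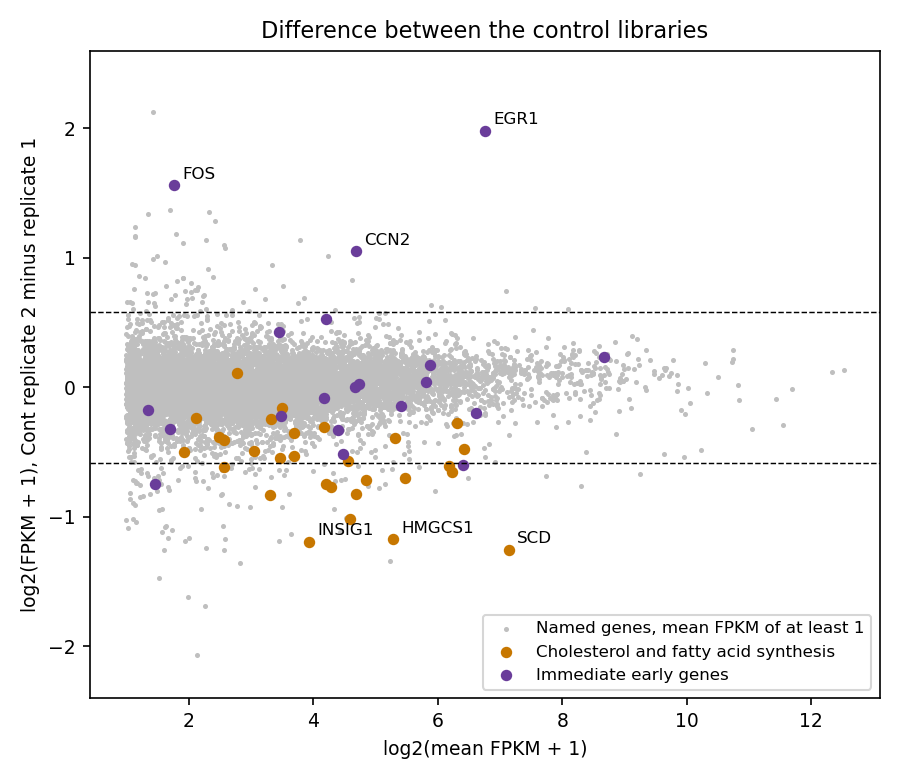
Difference of log2(FPKM + 1), replicate 2 minus replicate 1, against log2(mean FPKM + 1) for 10913 named genes (grey), with genes of cholesterol and fatty acid synthesis (orange) and immediate early genes (purple) and dashed lines at 1.5-fold. The lipid genes lie below 0 in 28 of 29 cases, and EGR1, FOS and CCN2 lie above the upper line.

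Other genes led the differences in the direction of replicate 1 as well. CRCT1, a cysteine-rich gene of the epidermal differentiation region, was at 6.35 and 1.28 FPKM from 90 and 16 reads, the largest fold of a protein-coding gene in that direction, followed by IGFL1, SCD and INSIG1 and by the fatty acid carrier FABP3 at 7.28 and 2.67. The cell-cycle inhibitor CDKN1A stood at 25.5 and 12.8 FPKM and SERPINB2, a urokinase inhibitor, at 28.4 and 12.6. LIF, IL1B, AREG, EREG, OVOL1 and GRHL3, whose values are given above, passed the same fold, as did IL24 at 13.4 and 8.28 FPKM. RPS18, a ribosomal protein gene counted here as housekeeping, lay the other way at 102 and 171 FPKM. None of the 5 markers passed the fold.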

How the data were processed

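RNA of SAS-Fucci cells was extracted with a column kit and sequenced on a DNBSEQ instrument, and the authors used Hisat2 2.0.1 for alignment. The submitters' notes also name HTSeq 0.6.1, DESeq2 and the build GRCh38, but give them no role. Which annotation release was used, whether strand was respected, how reads with several positions were counted and what was filtered are not given in the sources used here. The deposited values are FPKM, to 3 decimals, as the authors computed them for each library. Only the columns of the 2 control libraries were used. The 6831 models that carry no gene name were excluded.

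Gene types came from GENCODE 29, matched by gene identifier for 57307 named models. Assigned reads were recovered from the steps of the FPKM values. All low values, 12326 and 12646 of them, were whole within 0.1 read, and these reads served for 95% Poisson intervals and the chi-square between libraries. Same-strand overlap was computed from the spans in the table. Differences between libraries used log2(FPKM + 1), a mean FPKM of at least 1 and a fold of 1.5. No test between groups was made. Named genes were the 5 markers, the 20 highest protein-coding genes and 10 highest other models, up to 6 members of each of 32 lists (669 genes), every detected member of other-lineage lists, all members of the keratin, squamous factor, IGF and EGFR ligand lists, and the 5 genes with the widest fold in each direction. Some genes within this rule are not reported here. Other genes named were chosen after their values were seen. The members and lists were chosen with earlier results of these data known, and the lipid and immediate early lists after the values were seen. The comparison of libraries was tested on simulated data. Alternatives were the threshold, pseudocount, filter, TPM, other scalings, unnamed models and leaving out a library. Computations used Python 3.11.15, numpy 2.4.6, pandas 2.3.3, scipy 1.17.1 and matplotlib 3.10.9.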

Additional observations from a re-analysis of the deposited data

Results flagged for a closer look

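Gene models without a name were outside the report. Of these 6831 models, 964 reached an FPKM of at least 1 in both control libraries. Among named models 10609 of 59520 did so (17.8%). The highest unnamed model had a mean of 1353 FPKM. The unnamed models held 2.68% of assigned reads in replicate 1 and 2.69% in replicate 2, and 3975 of the 6831 lie on alternate or patch sequences of the genome, where they can share reads with named genes.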

How the results depend on the processing

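The 10609 detected named genes became 6137 at a threshold of 5 FPKM, and 12221 at 0.5, 13417 with TPM, 11573 with unnamed models, and 10904 to 10930 without either library. Restricted, after the data were seen, to protein-coding genes the count was 9417, and without covered genes 10088. TPM rescales each library to a fixed sum that is larger than its FPKM sum, 287644 in replicate 1 and 293747 in replicate 2. The same threshold and pseudocount are therefore lower in effect with TPM. At a threshold of 5, receptor tyrosine kinases fell from 26 to 13 detected and other-lineage factors from 10 to 4. The root mean square log2 difference of 0.21 became 0.13 with a pseudocount of 5. The genes past 1.5-fold, 124 higher in replicate 1 and 75 in replicate 2, became 227 and 157 with a pseudocount of 0.1, 248 and 175 with none, 40 and 17 with a pseudocount of 5, 57 and 20 at a mean FPKM of at least 5, and 214 and 118 with TPM, and replicate 1 had the more genes in each of these. Of 27 further list counts, 26 stayed within 1.5 times at a threshold of 0.5, 13 at 5 and 27 without either library. No paired analysis was possible because a single group was described. Of genes at 1 to 10 FPKM, 28.1% lay outside the 95% counting range, compared with 85.8% from 100 upward. The median reads per gene were 369 and 8860 in these ranges, and at an equal fold this share rises with the reads. The spread of the low genes thus also exceeded counting error.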
